A study of Oryza sativa Japonica Group with 12 samples.

Results

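The Lhca genes encode the chlorophyll-binding proteins of the photosystem I antenna. They were measured here in rice leaves in which a gene of chlorophyll synthesis was targeted by an artificial microRNA. Of 38978 rows in a table of read counts per gene, 6 belong to the family and were taken by locus ID. They are Lhca1 (Os06g0320500), Lhca2 (Os07g0577600), Lhca3 (Os02g0197600), Lhca4 (Os08g0435900), Lhca5 (Os02g0764500) and Lhca6 (Os09g0439500). The table itself holds IDs without names. All 6 rows passed the filter on low counts, and are among the 20217 rows tested. The plants were field-grown rice of the japonica cultivar Nipponbare, with leaves collected at 10 in the morning. The WT group was this cultivar without a transgene, and Line7 and Line8 were homozygous transgenic lines 7 and 8 with a construct named p35s-Ami-YGL1, an artificial microRNA against YGL1 (chlorophyll synthase) under the 35S promoter, which is active in most plant tissues. Each of these 3 groups had 4 libraries, and no group carried a control construct, so an effect of the microRNA and an effect of carrying a transgene cannot be told apart.

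Photosystem I uses light to pass electrons to ferredoxin at the end of the photosynthetic chain. Its core is bordered on one side by a crescent of antenna proteins that bind chlorophyll and carotenoids and pass the absorbed energy inward. In plants the crescent is built from a pair of Lhca1 with Lhca4 and a pair of Lhca2 with Lhca3. Lhca3 and Lhca4 hold the chlorophylls that absorb furthest into the red. Lhca5 and Lhca6 are relatives of low abundance which, in Arabidopsis, join photosystem I to the chloroplast NADH dehydrogenase-like complex that takes part in cyclic electron flow. The proteins fold around newly made chlorophyll, whose last steps of synthesis include the reaction of chlorophyll synthase.

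Library totals ran from 14746933 to 19822636 counts. The ID taken as that of the microRNA's target, Os05g0349700, was at 57.7, 44.2, 47.8 and 69.1 CPM (counts divided by a library total that was scaled by the TMM method, in the usual CPM unit) in WT replicates 1 to 4. In Line8 it was at 26.1, 33.4, 23.8 and 24.0 CPM, below every WT library. In Line7 it was at 34.4, 27.4 and 27.8 CPM in replicates 1, 3 and 4, and at 68.1 CPM in the library labelled Line7 replicate 2, within the WT range. On the first principal component of all tested rows, the score of that library was -62.3 and those of WT were -69.9 to -52.6, against 22.7 to 61.9 for the other 7 libraries of the lines. Line8 replicate 3 stood apart on the second component at 85.8, followed by WT replicate 1 at 47.9, with the other 10 libraries between -39.5 and 4.13. Of the 66 pairs of libraries, the pair whose counts differed least was WT replicate 4 with the library labelled Line7 replicate 2. Whether that library carries the genotype on its label cannot be told from the files, and every Line7 mean and fold change over 4 libraries includes it. Fold changes of Line7 are therefore given with and without that library. Those of Line8 are given with and without Line8 replicate 3, whose target row was low as in the rest of its line. Leaving out WT replicate 1, the next on the second component, moved Line8 changes the other way for most members. On the log2 scale the Line8 changes of Lhca1 to Lhca6 were then 0.97, 0.39, -0.16, 1.30, 0.23 and 4.69. With all libraries they were 1.13, 0.49, -0.02, 1.37, 0.22 and 4.76. The labels do not state whether replicates came from separate plants. The p-values then reflect the variation among these libraries alone, which may be technical.

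Lhca6 was nearly silent in WT leaves and was about 27 to 28 times higher in both lines. It was at 1.67, 2.28, 1.47 and 2.43 CPM in WT replicates 1 to 4, from 24 to 42 counts per library. In Line7 it was at 81.0, 101 and 34.8 CPM in replicates 1, 3 and 4, and at 2.63 CPM in the library labelled Line7 replicate 2, from 47 counts. In Line8 it was at 102, 61.9, 17.0 and 32.7 CPM in replicates 1 to 4. Each library of both lines thus lay above every WT library, but the library labelled Line7 replicate 2 did so only by a small margin. Among the remaining 7 line libraries the level still varied between 17.0 and 102 CPM.

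The log2 fold change of Lhca6 was 4.80 in Line7 against WT (SE 0.89, 95% interval 2.88 to 6.72) and 4.76 in Line8 against WT (SE 0.889, 95% interval 2.84 to 6.68). Both passed the threshold of 0.05 on the Benjamini-Hochberg adjusted p of edgeR's quasi-likelihood test, with adjusted p = 0.0148 in Line7 and 0.0034 in Line8. By size of the log2 fold change, Lhca6 was the 46th highest of 20217 rows in Line7 and the 67th highest in Line8. Without the library labelled Line7 replicate 2 the change in Line7 was 5.20 (edgeR adjusted p = 6.46e-05), a 36.6-fold difference. Without Line8 replicate 3 the change in Line8 was 5.09 (edgeR adjusted p = 0.00357), a 34.2-fold difference.

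The call of Lhca6 in Line8 held in all alternatives run, whereas that in Line7 was lost in 6 of them. Leaving out WT replicate 1, 3 or 4 gave edgeR adjusted p = 0.056, 0.0687 or 0.0519 for the Line7 change. Leaving out Line7 replicate 1 or 3 gave edgeR adjusted p = 0.0503 or 0.051. With limma-voom it was 3.90 with an adjusted p of 0.118. The log2 fold change in these 5 edgeR fits was 4.33 to 4.91. The adjusted p is set over all rows, and in the same 5 fits only 7 to 18 rows of the table passed in Line7.

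**Figure D1:**
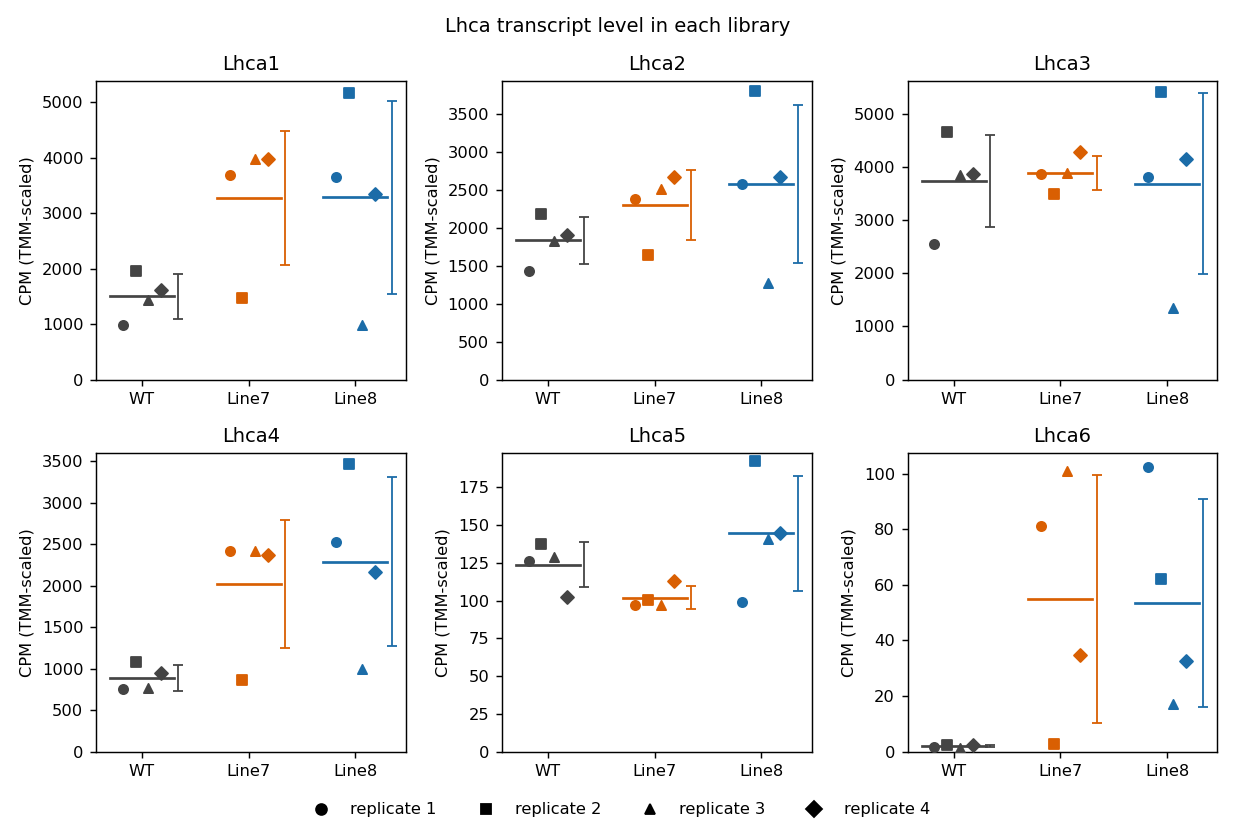
TMM-scaled CPM (y axis, linear, from 0) of each Lhca gene in the 4 libraries of WT, Line7 and Line8, with the group mean as a line and ±1 SD (n = 4) as the bar beside it. Lhca6 lies at 1.47 to 2.43 CPM in WT and at 17.0 to 102 CPM in 7 of 8 line libraries, and the library labelled Line7 replicate 2 (orange square) is the lowest of its line for Lhca1, Lhca2, Lhca3, Lhca4 and Lhca6.

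Lhca1 and Lhca4, the partners of one antenna pair, had more than 2-fold higher mean levels in both lines, with the change past the threshold for Lhca4 in Line8. Lhca4 was at 751, 1076, 766 and 944 CPM in WT. It was at 2415, 2424 and 2378 CPM in Line7 replicates 1, 3 and 4, and at 867 CPM in the library labelled Line7 replicate 2. The Line8 libraries held 2532, 3465, 998 and 2169 CPM. The 3 Line7 libraries lay close together and above every WT library, and in Line8 only replicate 3 lay within the WT range. Of all tested rows, 21.4% lay wholly above WT in these 3 Line7 libraries. No like share was computed for Line8 without replicate 3. The log2 fold change was 1.19 in Line7 (SE 0.377, edgeR adjusted p = 0.0707) and 1.37 in Line8 (SE 0.379, edgeR adjusted p = 0.0188).

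Lhca4 in Line7 passed the threshold without the library labelled Line7 replicate 2 (log2 fold change 1.44, SE 0.322, edgeR adjusted p = 0.00663) and without Line8 replicate 3 (1.21, edgeR adjusted p = 0.0329). In Line8 its call was lost without WT replicate 3 (1.33, edgeR adjusted p = 0.0527). Without Line8 replicate 3 the change in Line8 was 1.66 (edgeR adjusted p = 0.00537).

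Lhca1 was at 981, 1964, 1443 and 1618 CPM in WT. In Line7 it was at 3692, 3972 and 3977 CPM in replicates 1, 3 and 4, and at 1479 CPM in the library labelled Line7 replicate 2. Levels in Line8 were 3649, 5175, 978 and 3344 CPM. As for Lhca4, 3 libraries of each line lay above every WT library, while the library labelled Line7 replicate 2 lay within the WT range and Line8 replicate 3 lay just below it. The log2 fold change was 1.13 in Line7 (SE 0.44, edgeR adjusted p = 0.124) and 1.13 in Line8 (SE 0.44, edgeR adjusted p = 0.0727), neither past the threshold. Without the library labelled Line7 replicate 2 the Line7 change was 1.37 (edgeR adjusted p = 0.0313), and without Line8 replicate 3 the Line8 change was 1.47 (edgeR adjusted p = 0.011).

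Lhca2 and Lhca3, the partners of the other pair, had smaller differences, and none passed the threshold when all libraries were used. Lhca2 was at 1430, 2181, 1826 and 1905 CPM in WT, at 2375, 2516 and 2679 CPM in Line7 replicates 1, 3 and 4, and at 1643 CPM in the library labelled Line7 replicate 2. The 4 Line8 libraries were at 2579, 3811, 1269 and 2668 CPM. Those 3 Line7 libraries and 3 of 4 Line8 libraries exceeded every WT library, while the library labelled Line7 replicate 2 and Line8 replicate 3 did not. As stated for Lhca4, 21.4% of all tested rows lay wholly above WT in those 3 Line7 libraries. On the log2 scale the change of Lhca2 was 0.33 in Line7 (SE 0.291, edgeR adjusted p = 0.497) and 0.49 in Line8 (SE 0.292, edgeR adjusted p = 0.223). Lhca2 was called in Line8 when Line8 replicate 3 was left out (0.76, SE 0.233, edgeR adjusted p = 0.0333). Its change in Line7 without the library labelled Line7 replicate 2 was 0.46 (edgeR adjusted p = 0.288).

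Lhca3 was at 2558, 4656, 3844 and 3864 CPM in WT. It was at 3871, 3879 and 4280 CPM in Line7 replicates 1, 3 and 4, and at 3495 CPM in the library labelled Line7 replicate 2. In Line8 it was at 3821, 5415, 1345 and 4150 CPM. The Line7 libraries all lay within the WT range, and in Line8 replicates 1 and 4 lay within it, replicate 2 above it and replicate 3 below it. Lhca3 differed from WT on the log2 scale by 0.06 in Line7 (95% interval -0.67 to 0.78, edgeR adjusted p = 0.933) and -0.02 in Line8 (95% interval -0.74 to 0.70, edgeR adjusted p = 0.972). The difference in Line7 without the library labelled Line7 replicate 2 was 0.10 (edgeR adjusted p = 0.866), and without Line8 replicate 3 that in Line8 was 0.30 (edgeR adjusted p = 0.345). The intervals from all libraries leave room for a difference of up to about 0.78 on the log2 scale in either line, so the data do not show that Lhca3 was the same in all groups.

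Lhca5, like Lhca6 a linker protein in Arabidopsis, did not pass the threshold in either line. It was at 126, 138, 129 and 103 CPM in WT and at 97.4, 97.3 and 113 CPM in Line7 replicates 1, 3 and 4, with 100.4 CPM in the library labelled Line7 replicate 2. In Line8 it was at 99.3, 193, 141 and 145 CPM. Line8 replicates 2, 3 and 4 exceeded every WT library and replicate 1 lay below all of them. For Lhca5 the log2 fold change was -0.28 in Line7 (95% interval -0.69 to 0.13, edgeR adjusted p = 0.367) and 0.22 in Line8 (95% interval -0.19 to 0.63, edgeR adjusted p = 0.399). It was -0.27 in Line7 without the library labelled Line7 replicate 2 and 0.28 in Line8 without Line8 replicate 3 (edgeR adjusted p = 0.352 and 0.331).

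Counted over the family, 1 of 6 members rose in Line7 (Lhca6) and 2 of 6 rose in Line8 (Lhca4 and Lhca6) by edgeR. DESeq2 called 2 in Line7 (Lhca4 and Lhca6) and 3 in Line8 (Lhca1, Lhca4 and Lhca6), and limma-voom called 0 in Line7 and 2 in Line8. Over all tested rows DESeq2 called 2167 higher in Line7 and 3781 in Line8. With limma-voom only 12 rows were called higher in Line7, and 2936 in Line8. None of the 3 tools called a member lower in either line. At an unadjusted edgeR p below 0.05 there were 3 in each line, namely Lhca1, Lhca4 and Lhca6, all higher. At that unadjusted threshold stood 5442 of 20217 tested rows in Line7 and 8220 in Line8, in either direction. By the adjusted edgeR p, 5.92% of all tested rows rose and 1.05% fell in Line7, and 15.5% rose and 11.8% fell in Line8. The median log2 fold change of the 6 members was 0.73 in Line7 and 0.81 in Line8, against -0.01 and -0.07 over all tested rows. Both lines were compared with the same WT libraries. With so few members, the count in Line8 is not far above the share of all rows that rose. With upper-quartile scaling, 2719 rows were higher and 3149 lower in Line8, against 3136 and 2388 with TMM, and the members called in Line8 still numbered 2, both higher.

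Without the library labelled Line7 replicate 2, 3 members rose in Line7, namely Lhca1, Lhca4 and Lhca6, beside 14.9% of all tested rows. Without Line8 replicate 3, 4 members rose in Line8, namely Lhca1, Lhca2, Lhca4 and Lhca6, beside 16.0% of rows. The Line7 count was 0 without WT replicate 1, 3 or 4 or Line7 replicate 1 or 3, fits in which 7 to 18 rows passed in all. It was 3 when Line8 replicate 3, a library of neither group compared, was left out, beside 1676 of 20536 rows higher. The Line8 count was 1 without WT replicate 3, beside 2333 rows higher. It was 3 without the library labelled Line7 replicate 2, beside 3561 of 20490 rows higher. Groups did not overlap for 1 member in Line7 and in Line8 against WT, Lhca6 in both cases, where 4.71% and 16.1% of all tested rows lay wholly above WT. With the library labelled Line7 replicate 2 set aside, Lhca1, Lhca2, Lhca4 and Lhca6 in Line7 lay wholly above WT, beside 21.4% of rows.

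**Figure D2:**
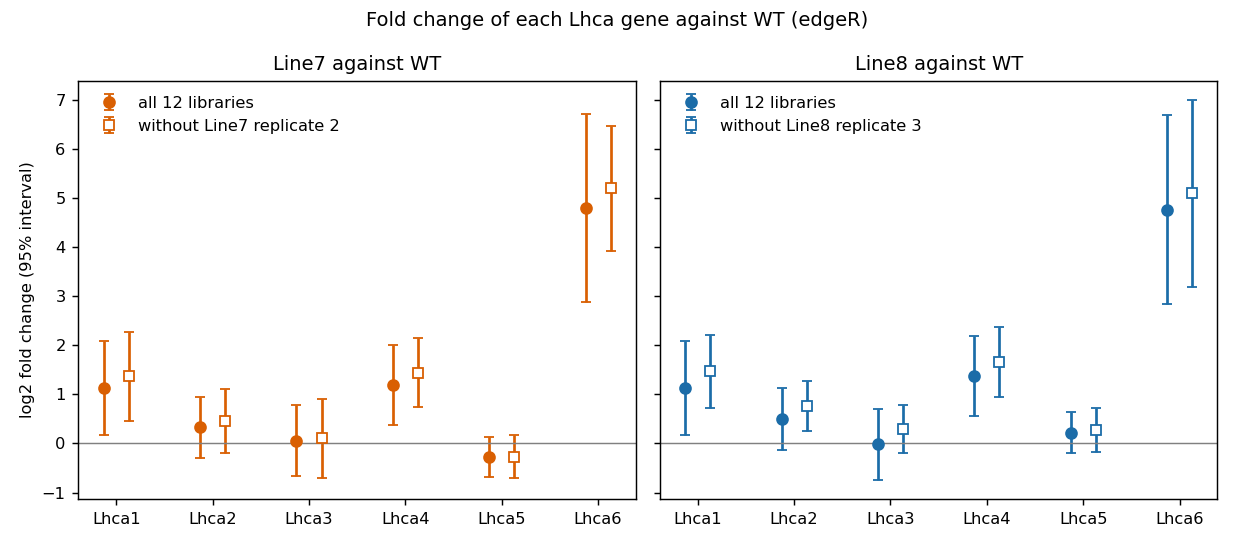
Log2 fold change against WT (y axis) with its 95% interval for each Lhca gene, in Line7 (left) and Line8 (right), from edgeR fits with all 12 libraries (filled) and without the line library that stood apart (open). Lhca6 lies between 4.76 and 5.20, Lhca1 and Lhca4 between 1.13 and 1.66, and the intervals of Lhca3 and Lhca5 include 0 in every fit shown.

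For the mean of both lines against WT, Lhca4 and Lhca6 rose (log2 fold changes 1.28 and 4.78, edgeR adjusted p = 0.0188 and 0.00385) and 0 members fell, beside 14.2% of all tested rows higher and 10.1% lower. Lhca1 was at 1.13 with an edgeR adjusted p of 0.0543. It passed the threshold without the library labelled Line7 replicate 2 (1.25, edgeR adjusted p = 0.0183) and without Line8 replicate 3 (1.31, edgeR adjusted p = 0.00986), and DESeq2 called it with all libraries (1.14, adjusted p = 0.0128). The call of Lhca4 was lost without WT replicate 1 or 3 (edgeR adjusted p = 0.0534 and 0.0655), which left Lhca6 as the 1 member called.

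Set against the target row in the same libraries, the 7 line libraries in which Os05g0349700 was at 23.8 to 34.4 CPM were the 7 in which Lhca6 was at 17.0 CPM or more. The 4 WT libraries and the library labelled Line7 replicate 2 had the target row at 44.2 to 69.1 CPM and Lhca6 at 1.47 to 2.63 CPM. This split is not particular to Lhca6. The first principal component of all tested rows, with 53.2% of the variance, divided the libraries in the same way. Of all tested rows, 16.1% lay wholly above WT in Line8, and 21.4% in Line7 without the library labelled Line7 replicate 2. The share of rows with the exact split was not computed. Among the 7, Lhca6 did not follow the order of the target levels. Line8 replicates 3 and 4 had the target row at 23.8 and 24.0 CPM, the 2 lowest levels, and Lhca6 at 17.0 and 32.7 CPM, the 2 lowest of the 7. Next lowest in the target row were Line8 replicate 1 and Line7 replicate 3, at 26.1 and 27.4 CPM. These had the 2 highest Lhca6 levels, at 102 and 101 CPM. The libraries form separate clusters, so no correlation is given.

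**Figure D3:**
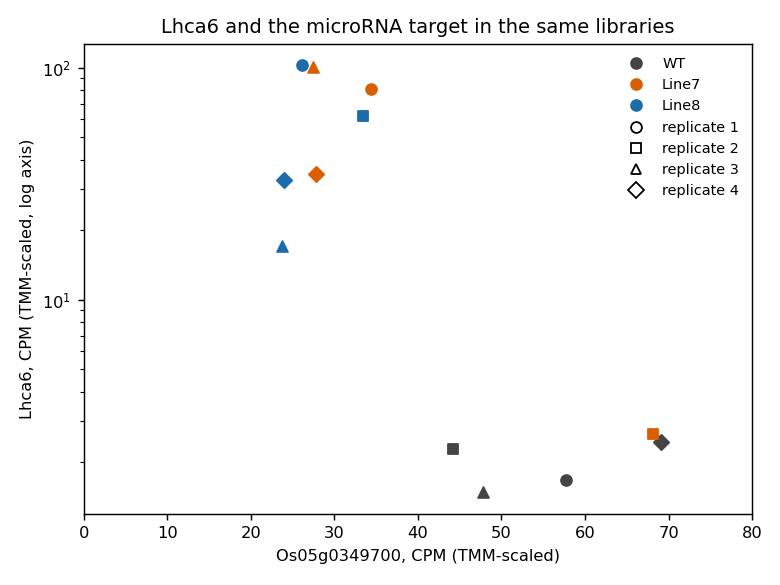
Lhca6 (y axis, CPM, log scale) against Os05g0349700, the row taken as the microRNA's target (x axis, CPM), with 1 point per library, coloured by group and shaped by replicate number. The library labelled Line7 replicate 2 (orange square, 68.1 and 2.63 CPM) lies beside WT replicate 4, and the other 7 line libraries lie at the upper left.

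The make-up of the family differed with the same split of libraries. In WT the 6 genes together took 0.606 to 0.933% of a library's counts. In Line7 replicates 1, 3 and 4 they took 1.32% in each, and in the library labelled Line7 replicate 2 they took 0.797%. In Line8 they took 1.29, 1.63, 0.508 and 1.20% in replicates 1 to 4. Line8 replicate 3 thus had the lowest family total of all 12 libraries, while its Lhca6, at 17.0 CPM, was above every WT library. Counts were not divided by transcript length, which the table does not hold, so levels and shares are compared between libraries for each gene and not between genes.

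Lhca3 made up 43.7 to 48.0% of the family's counts in WT and 46.1% in the library labelled Line7 replicate 2. In the other 7 line libraries it made up 28.3 to 33.2%. Lhca4 made up 9.57 to 12.8% in WT and 11.4% in the library labelled Line7 replicate 2, and 17.3 to 21.0% in the other 7. Lhca6 made up 0.0184 to 0.0288% in WT and 0.259 to 0.80% in those 7. Lhca1 made up 16.8 to 19.6% in WT, 19.5% in the library labelled Line7 replicate 2 and 20.6 to 30.6% in the other 7, of which Line8 replicate 3 was the lowest. The shares of Lhca1, Lhca3, Lhca4 and Lhca6 in those 7 libraries did not overlap with WT. Those 7 were set apart after seeing the data, and no like share exists for rows outside the family. Shares of the same total are tied together, so a lower share of Lhca3 does not mean a lower level of Lhca3.

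**Figure D4:**
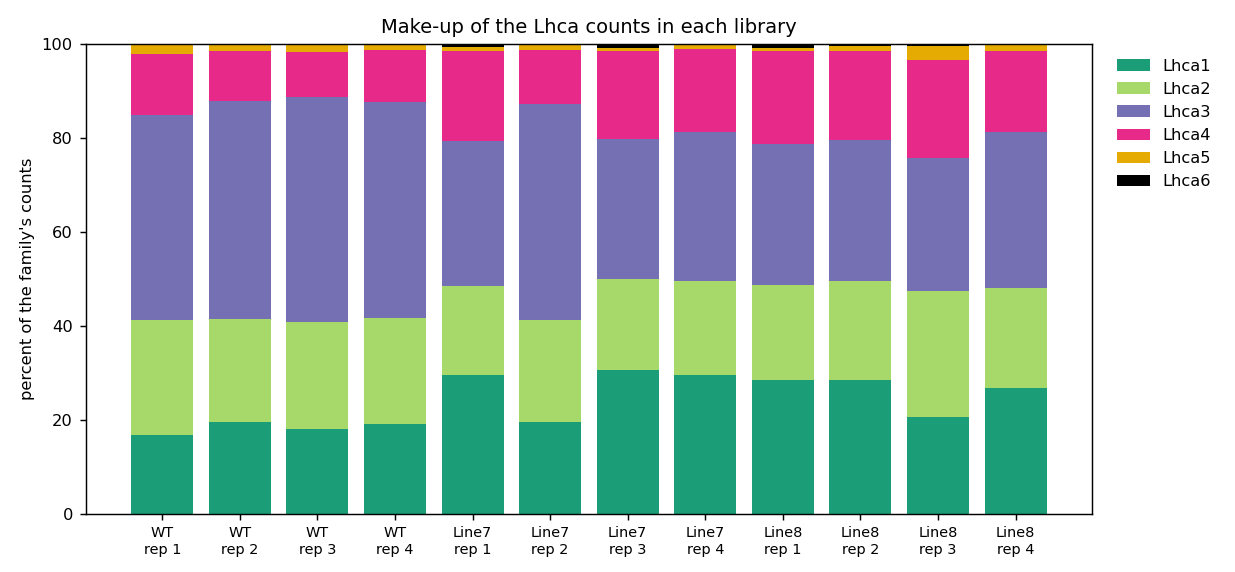
Share of the family's counts (y axis, percent) taken by each Lhca gene in each of the 12 libraries. Lhca3 takes 43.7 to 48.0% in WT and 28.3 to 33.2% in the line libraries other than that labelled Line7 replicate 2, and Lhca6 (black, at the top) stays under 1% throughout.

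Ratios between members of the same library do not depend on how libraries are scaled, and 4 were tested in 3 comparisons. Within the pair of Lhca4 and Lhca1, counts of Lhca4 were 0.766, 0.548, 0.531 and 0.584 times those of Lhca1 in WT. They were 0.654, 0.61 and 0.598 times those of Lhca1 in Line7 replicates 1, 3 and 4 and 0.586 times in the library labelled Line7 replicate 2, all within the WT range. In Line8 the ratio was 0.694, 0.669, 1.02 and 0.649, with replicate 3 above all other libraries. The mean log2 ratio differed from WT by 0.03 in Line7 (exact two-sided permutation p = 0.886) and by 0.31 in Line8 (exact permutation p = 0.143). The Line8 difference was 0.16 without Line8 replicate 3. The Line7 difference was -0.03 to 0.14 with single libraries left out, among them 0.05 without the library labelled Line7 replicate 2.

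Within the pair of Lhca3 and Lhca2, counts of Lhca3 were 1.79, 2.14, 2.10 and 2.03 times those of Lhca2 in WT and 1.48, 1.42, 1.06 and 1.56 times in Line8, below every WT library. In Line7 the ratio was 1.63, 1.54 and 1.60 in replicates 1, 3 and 4, and 2.13 in the library labelled Line7 replicate 2. The mean log2 ratio was lower by 0.56 in Line8 (difference -0.56, exact permutation p = 0.0286) and by 0.23 in Line7 (difference -0.23, exact permutation p = 0.114). The Line8 difference was -0.44 without Line8 replicate 3, and without the library labelled Line7 replicate 2 the Line7 difference was -0.34. Counts of Lhca6 were 0.0807 to 0.127% of those of Lhca2 in WT and 1.23 to 3.97% in Line8. In Line7 they were 3.41, 4.01 and 1.30% in replicates 1, 3 and 4, and 0.16% in the library labelled Line7 replicate 2. All 8 line libraries exceeded every WT library, and the log2 ratio differed by 4.07 in Line8 and 3.60 in Line7 (exact permutation p = 0.0286 in each). Without the library labelled Line7 replicate 2 the Line7 difference was 4.60, and without Line8 replicate 3 the Line8 difference was 4.21. Whether reads of similar members were counted in each other's rows was not tested.

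The ratio of Lhca5 to Lhca4 was lower in 3 of 4 libraries of each line than in every WT library. Counts of Lhca5 were 10.9 to 16.8% of those of Lhca4 in WT, and 3.92, 5.56 and 6.67% in Line8 replicates 1, 2 and 4, with 14.1% in replicate 3. In Line7 they were 4.03, 4.02 and 4.75% in replicates 1, 3 and 4, and 11.6% in the library labelled Line7 replicate 2. The log2 difference from WT was -1.36 in Line7 (exact permutation p = 0.0571) and -1.06 in Line8 (exact permutation p = 0.0857). It was -1.73 in Line7 without the library labelled Line7 replicate 2 and -1.42 in Line8 without Line8 replicate 3. Over all 12 tests the smallest Benjamini-Hochberg adjusted value was 0.114, so none of the ratios passed the correction. With 4 against 4 libraries the exact p cannot fall below 0.0286. An adjusted value below 0.05 would need most of the 12 tests at that floor, so the correction could hardly be passed.

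**Figure D5:**
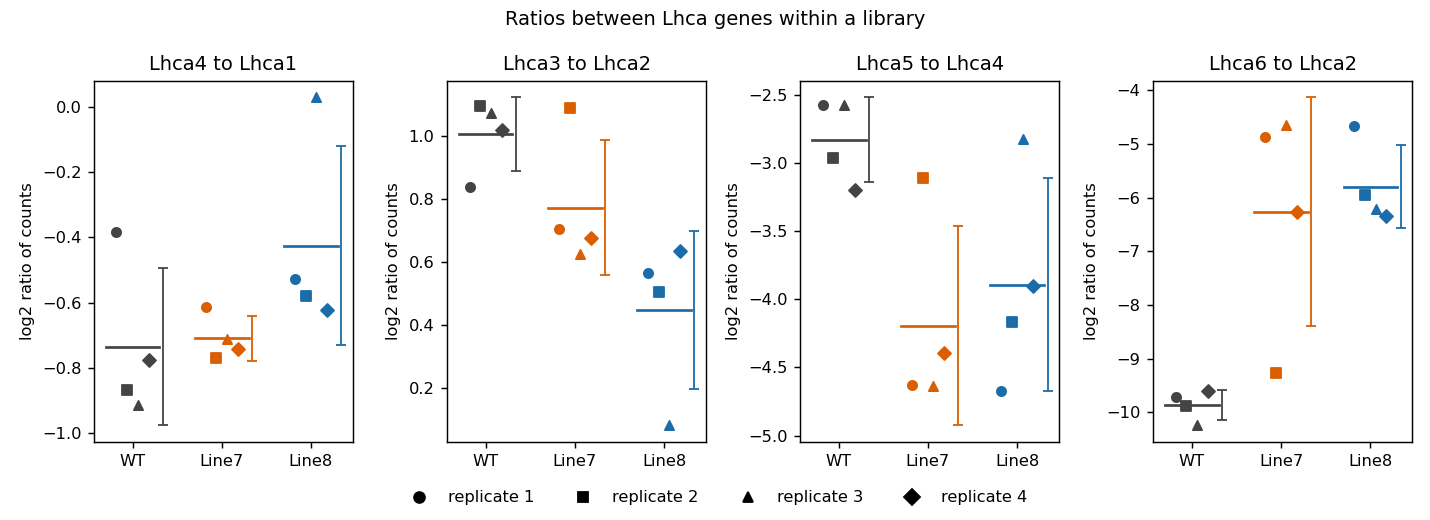
Log2 ratio of counts (y axis) of Lhca4 to Lhca1, Lhca3 to Lhca2, Lhca5 to Lhca4 and Lhca6 to Lhca2 in each library, with the group mean as a line and ±1 SD (n = 4) as the bar beside it. Ratios of Lhca6 to Lhca2 are higher in all 8 line libraries than in WT, and those of Lhca3 to Lhca2 are lower in all 4 Line8 libraries.

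The lines were not shown to differ from each other in any member. In Line8 against Line7, edgeR called 0 of 6 members (0.0247% of all tested rows, in either direction), as did DESeq2 and limma-voom. Of the 20217 tested rows, 3268 had an unadjusted edgeR p below 0.05, and of the 6 members 1 had. That was Lhca5, at a log2 difference of 0.50 (95% interval 0.09 to 0.91, unadjusted p = 0.0203, edgeR adjusted p = 0.254). For Lhca6 the difference was -0.04 with a 95% interval of -1.62 to 1.55, so differences of more than 2-fold in either direction are not excluded by these libraries. For Lhca1 and Lhca4 the intervals were -0.94 to 0.94 and -0.62 to 0.98. For Lhca2 and Lhca3 they were -0.46 to 0.79 and -0.80 to 0.65. Without the library labelled Line7 replicate 2, the log2 differences of Lhca1 to Lhca6 were -0.24, 0.03, -0.12, -0.07, 0.49 and -0.43. The 95% interval of Lhca6 was then -1.51 to 0.64. In that fit edgeR called 0 members and 7 of 20490 tested rows.

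Other genes of the light-harvesting apparatus were counted from lists of locus IDs written down from general knowledge, which the files do not pair with names. Of 9 IDs listed for nuclear subunits of photosystem I, 2 rose in Line7 and 4 rose in Line8 by edgeR, with 0 lower, and their median log2 fold changes were 0.57 and 0.94. Of all tested rows 5.92% rose in Line7 and 15.5% in Line8. Without Line8 replicate 3 all 9 rose in Line8, with a median of 1.23, beside 16.0% of rows. Without the library labelled Line7 replicate 2, 4 rose in Line7, with a median of 0.77, beside 14.9% of rows. Of 8 IDs listed for the photosystem II antenna, 0 rose in Line7 and 3 in Line8, with 0 lower and medians of 0.27 and 0.45. Without the library labelled Line7 replicate 2, 3 of these 8 rose in Line7, with a median of 0.38. In Line8 4 of the 8 rose without Line8 replicate 3, with a median of 0.76. The spread of changes was wide in that list, from -0.20 to 3.02 in Line8.

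By the root-mean-square difference of centred log2 values over the 12 libraries, Lhca2 was nearest of all 20217 tested rows to the profile of the family's summed level, at 0.136. That sum includes the counts of Lhca2 itself, which favours the members in this ranking. The nearest rows outside the family were Os12g0420400 at 0.145, an ID in the photosystem I list, and Os03g0336000 at 0.157. The level of Os12g0420400 was 1341 ± 300 CPM in WT, 1762 ± 347 CPM in the Line7 group and 1951 ± 1124 CPM in the Line8 group (SD, n = 4 each). That of Os03g0336000 was 24.3 ± 7.06, 35.8 ± 8.82 and 35.3 ± 14.5 CPM in the same order. Lhca6 was at 1.82, rank 20169. Among pairs of members, Lhca1 with Lhca4 were the closest at 0.242 and Lhca2 with Lhca3 the next at 0.287, while Lhca5 with Lhca6 were the farthest apart at 2.18.

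Leaf markers (3 IDs listed for Rubisco small subunits and 1 for Rubisco activase) were all present, with a summed level of 25455 to 45225 CPM in WT, 18890 to 26248 CPM in Line7 and 16975 to 33530 CPM in Line8. Gene by gene the 4 did not all go the same way. In Line7, 0 of these 4 were called, with log2 fold changes from -0.67 to 0.72. In that comparison 1 of them had an unadjusted edgeR p below 0.05, as had 5442 of 20217 tested rows. In Line8, 2 rose and 0 fell, with log2 fold changes from -0.66 to 1.51 and a median of 0.67. For the mean of both lines, 0 rose and 1 fell, with log2 fold changes from -0.66 to 1.11. Of all tested rows 5.92% rose in Line7, 15.5% in Line8 and 14.2% for the mean. The shares that fell were 1.05%, 11.8% and 10.1%. Without Line8 replicate 3, 0 of the 4 were called in Line8. There 2 had an unadjusted edgeR p below 0.05, as had 8130 of 20536 rows. The 1 root ID was at 0 counts in every library. Of 5 IDs listed for floral organs, Os06g0712700 held nearly all counts and was the 1 row tested. It fell in Line8 (log2 fold change -1.44) and was at -0.47 in Line7, where it was not called. The list summed to 11.9 to 15.3 CPM in WT, 6.04 to 17.7 CPM in Line7 and 3.97 to 7.67 CPM in Line8. The part of these levels in the Lhca results was not tested. In whole-leaf RNA, fewer cells of a type and less RNA per cell cannot be told apart.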

How the data were processed

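Per the labels' protocols, Trizol was used to extract leaf RNA. The deposited table gives raw counts, as whole numbers, for 38978 genes in 12 libraries. Aligner, counter, genome build and strand setting were not given in the sources used here. Reads of overlapping or near-identical genes may therefore have been split between rows. Season and site vary in the design text but are not tied to libraries, and no batch could be tested. Columns were matched to samples by their descriptions, and samples were grouped by title. Over 66 pairs of libraries, chi-square divided by its degrees of freedom was at least 13.6, so no library was a repeat of another. The lowest was WT replicate 4 with the library labelled Line7 replicate 2.

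Differences were tested in R 4.3.3 with edgeR 4.0.16. The filterByExpr step left 20217 rows, which were scaled by TMM and fitted with group as the factor in all 12 libraries (glmQLFit, robust, and glmQLFTest). P-values were Benjamini-Hochberg adjusted over all tested rows, with a threshold of 0.05. SEs and 95% intervals were derived from each fold change with its F statistic. Ratios used counts plus 0.5 and an exact permutation test. The fit was tested on simulated data. DESeq2 1.42.0 and limma 3.58.1 (voom), other scalings and filters, fits with only the libraries compared, a block on replicate number and fits without each library were alternatives. The 6 members, the gene lists and the rule for named genes (all members, the target, and the 2 nearest rows outside the family) were chosen with earlier results of these data known.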

Additional observations from a re-analysis of the deposited data

Results flagged for a closer look

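In the 4 libraries of a group, a library was singled out where its gap to the nearest other, divided by the range of the group, exceeded Dixon's 95% critical value. Of 30 groups of values looked at, 4 had such a library. For a single group chance gives about 5%. The groups share libraries and genes, so the 4 are not separate draws and cannot be set against that rate. The library labelled Line7 replicate 2 was the lowest of its line for Lhca1, at 1479 CPM, and for Lhca4, at 867 CPM. The same library had the highest log2 ratio of Lhca5 to Lhca4 in Line7, at -3.11. Line8 replicate 3 had the highest log2 ratio of Lhca4 to Lhca1 in Line8, at 0.0285. What sets both libraries apart was not tested, and the genotype on the label of the first could not be checked beyond the level of the target row.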

How the results depend on the processing

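The number of members called was 1 in Line7, 2 in Line8, 2 for the mean of both lines and 0 between the lines. Leaving out single libraries gave 0 to 3 in Line7, 1 to 4 in Line8, 1 to 3 for the mean and 0 between the lines. In Line7 it was 2 with library totals only, 2 with DESeq2 and 0 with limma-voom. Without both the library labelled Line7 replicate 2 and Line8 replicate 3, an alternative chosen after seeing the data, it was 3 in Line7, 4 in Line8 and 4 for the mean. The cause of these shifts was not tested. No called member turned its direction in any alternative. Of 522 values of single members under alternatives, 493 kept their side of the threshold, 20 passed it newly and 9 no longer passed. The replicate numbers were not taken as pairs, since 5 of 12 same-numbered pairs deviated together with a correlation over 0.1 (range -0.43 to 0.38), and only 5 of 12 correlated best with their own number. With the replicate number as a block, 1, 2, 2 and 0 members were called, as without it, and all rows called were 475 in Line7 (1409 without it), 4826 in Line8 (5524), 4260 for the mean (4912) and 0 between the lines (5). Over all rows, calls in Line7 ranged from 7 without WT replicate 3 to 5156 without the library labelled Line7 replicate 2 when single libraries were left out, with 6684 without both libraries named above, 3024 by DESeq2, 22 by limma-voom and 587 with only the libraries compared. In Line8 they were 3443 without WT replicate 3. The mean of both lines had 8182 calls without both libraries named above, 2309 without WT replicate 3 and 3068 without WT replicate 4. Between the lines they were 474 by DESeq2. In Line8 against Line7 the partner ratios had exact permutation p from 0.0571 to 0.743, and that of Lhca6 to Lhca2 differed by 0.47, or -0.53 without the library labelled Line7 replicate 2. Depth limits Lhca6 in WT, where it rests on 24 to 42 counts per library.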
